A study of Mus musculus with 135 samples.

Results

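The aryl hydrocarbon receptor pathway was followed through 8 genes, Ahr, Arnt, Ahrr, Cyp1a1, Cyp1a2, Cyp1b1, Nqo1 and Tiparp, in maps of H3K4me3, a histone methylation found at promoters in use. A peak belonged to a gene when it lay within 1 kb of a GENCODE M21 basic start site of that gene on mm10. This gave 29 of 187253 peaks over the 4 cell types, namely 8 of 67114 in germ cells, 7 of 67192 in embryonic stem cells, 6 of 23809 in cardiomyocytes and 8 of 29138 in hepatocytes. Each of the 8 genes had a peak in at least 1 cell type.

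AHR is a ligand-activated transcription factor of the bHLH-PAS family that binds dioxins, polycyclic aromatic hydrocarbons and tryptophan metabolites. Bound to a ligand it pairs with ARNT in the nucleus and binds response elements with the core GCGTG, from which it turns on the cytochromes P450 Cyp1a1, Cyp1a2 and Cyp1b1, the quinone reductase Nqo1, and its own repressors Ahrr and Tiparp. The pathway is known above all from the liver, and the founders of the panel differ in it: C57BL/6J mice carry a high-affinity allele of Ahr and DBA/2J mice a low-affinity one.

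Several sources of chromatin were used, from the inbred strains C57BL/6J (called B6) and DBA/2J (called D2) and from BXD strains, recombinant inbred lines that carry fixed mosaics of both genomes. For hepatocytes and for cardiomyocytes there were 12 libraries, 3 per strain, from B6, D2, BXD75 and BXD87 female mice aged 8 weeks. Stem cells, derived from embryos at day 3.5, comprised 3 lines each of B6 and D2 and 5 lines each of BXD75 and BXD87. Male germ cells, a crude isolate at 14 days post-partum, comprised 3 libraries of B6, 3 of D2, 4 of the F1 hybrid and 69 of 61 BXD strains. The labels name no ligand or other treatment, so every level is that of cells with no treatment named.

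Reads in peaks, in units of 1e+06, ranged from 1.87 to 31.4 per library in germ cells, 13.8 to 20.2 in stem cells, 8.95 to 25.2 in hepatocytes and 2.62 to 12.8 in cardiomyocytes, where the 3 D2 libraries held no more than 4.1. Levels are CPM, counts scaled to 1e+06 reads in peaks with TMM factors, as mean ± SD, and p-values are edgeR quasi-likelihood values with Benjamini-Hochberg adjustment over all peaks of a table, called below 0.05. Whether replicates are different animals is not labelled, so these values measure only the spread between the samples. Promoter peaks were found for 6 of 6 hepatocyte markers in hepatocytes and 6 of 6 germ cell markers in germ cells. They were found for 3 of 6 stem cell markers in stem cells, not for Pou5f1, Nanog and Tdgf1, and for 2 of 6 cardiomyocyte markers in cardiomyocytes, not for Myh6, Tnnt2, Actc1 and Nppa. In hepatocytes the summed level of 4 of 6 liver non-parenchymal markers was 37.4 to 52.03 CPM in B6 and 89.9 to 126 CPM in D2, and most of that gap lay at Stab2, a gene of sinusoidal endothelium (10.2 ± 2.1 and 54.5 ± 21.3 CPM) whose peak was found on the second genome alone. Clec4f and Vsig4, which mark Kupffer cells, had no promoter peak there.

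The sequences shown are those where the letters of the response element stood out or where the levels below vary. RefSeq promoter windows of GRCm38.p6, 250 bases before to 50 after the start, were matched by symbol for 7 of the 8 genes, all but Ahr. Both strands were searched for GCGTG and for the longer TNGCGTG, every match of which contains a GCGTG. Capitals mark GCGTG, or its reverse complement CACGC, in the 250 bases before the start of Cyp1a1 (chr9:57697363-57697612, plus strand), Ahrr (chr13:74292332-74292581, minus strand) and Tiparp (chr3:65528197-65528446, plus strand), and in 300 bases (chr9:57696522-57696821, plus strand) that lie 1091 to 792 bases before the Cyp1a1 start inside the H3K4me3 peaks of all 4 cell types.
Cyp1a1 upstream stretch: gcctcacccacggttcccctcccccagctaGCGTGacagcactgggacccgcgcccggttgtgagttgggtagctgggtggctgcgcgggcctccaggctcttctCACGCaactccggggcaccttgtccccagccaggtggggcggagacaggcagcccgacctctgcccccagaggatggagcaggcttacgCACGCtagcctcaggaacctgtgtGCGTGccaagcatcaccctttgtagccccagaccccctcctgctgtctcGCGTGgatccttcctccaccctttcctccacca
Cyp1a1 start: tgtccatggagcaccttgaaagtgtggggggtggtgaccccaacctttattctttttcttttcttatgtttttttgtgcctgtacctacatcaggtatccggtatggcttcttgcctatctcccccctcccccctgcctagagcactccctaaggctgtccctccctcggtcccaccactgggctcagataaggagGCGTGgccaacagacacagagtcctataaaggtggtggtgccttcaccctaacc
Ahrr start: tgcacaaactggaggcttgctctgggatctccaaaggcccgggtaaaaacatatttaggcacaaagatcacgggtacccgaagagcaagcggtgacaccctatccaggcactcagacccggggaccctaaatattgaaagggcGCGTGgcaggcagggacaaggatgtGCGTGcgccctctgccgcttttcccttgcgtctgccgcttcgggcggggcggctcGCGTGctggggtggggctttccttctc
Tiparp start: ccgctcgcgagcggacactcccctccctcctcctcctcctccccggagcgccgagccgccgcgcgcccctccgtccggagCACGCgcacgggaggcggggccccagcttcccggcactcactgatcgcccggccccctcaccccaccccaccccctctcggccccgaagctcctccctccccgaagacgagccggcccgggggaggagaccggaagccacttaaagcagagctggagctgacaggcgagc

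The upstream stretch of Cyp1a1 held 5 GCGTG, of which 4 were TNGCGTG. This stretch was chosen as the 300 bases of the hepatocyte peak richest in TNGCGTG, so its count cannot be set against windows at fixed places. The whole hepatocyte peak around it (1923 bases) held 11 GCGTG and 7 TNGCGTG, and only 8 of 29138 hepatocyte peaks (0.0275%), this one included, held at least 7 TNGCGTG. In the 300-base windows at the starts the count was 3 for Ahrr, 1 each for Arnt, Cyp1a1, Cyp1b1 and Tiparp, and 0 for Cyp1a2 and Nqo1. Over all 32851 windows, 32.4% held a GCGTG and 5.07% a TNGCGTG, and of the 7 genes Ahrr alone had a TNGCGTG in its window. The hepatocyte and germ cell peaks of Cyp1a2 held no GCGTG at all. A match is a run of letters and was not tested for binding.

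The Cyp1a1 and Cyp1a2 genes, which start apart and run in opposite directions, differed most in where they were marked. Hepatocytes had 3 peaks there. One spanned the Cyp1a2 start (chromosome 9, 57679442 to 57684437) and another spanned the far start of Cyp1a1 at 57687928 (57684974 to 57688740), and no peak of germ cells, stem cells or cardiomyocytes overlapped the second. The third hepatocyte peak (57695208 to 57697130) ended 483 bases short of the near start of Cyp1a1 at 57697613. Germ cells and stem cells had a peak over the near start itself, and the cardiomyocyte peak, found on the reference genome alone, ended 37 bases before it. The germ cell peak counted for Cyp1a2 (57681028 to 57682831) lay 872 bases inside the gene and not at its start. Cyp1a2 is a detoxifying enzyme of liver, and stem cells and cardiomyocytes had no peak at it.

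**Figure D1:**
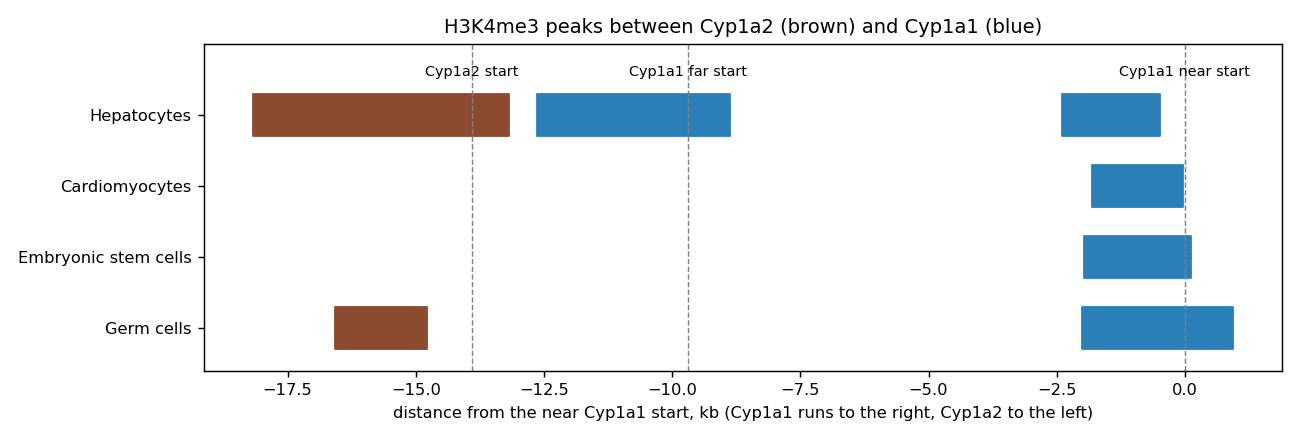
Map of the peaks counted for Cyp1a2 (brown) and Cyp1a1 (blue), 1 row per cell type, against the distance in kb from the near Cyp1a1 start, with start sites as dashed lines. Peaks over the Cyp1a2 start and the far Cyp1a1 start appear in the hepatocyte row only, and peaks upstream of the near Cyp1a1 start in all 4 rows.

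Ahrr, which codes for the repressor that competes with AHR for ARNT, had a peak in germ cells and stem cells (chromosome 13, 74291144 to 74293579 in germ cells), and no hepatocyte or cardiomyocyte peak overlapped it. With the starts of all transcripts in place of basic ones, cardiomyocytes gained an Ahrr peak elsewhere in the gene, found on the reference genome alone. Ahr, Arnt, Cyp1b1, Nqo1 and Tiparp had a promoter peak in all 4 cell types. The Arnt peak of germ cells belonged to the set added from the F1 hybrids. In hepatocytes the peaks of the receptor and its partner were broad. That of Arnt covered 12243 bases and was wider than 94.1% of 12616 promoter peaks, and that of Ahr (chromosome 12, 35526820 to 35536604) covered 9784 bases and was wider than 88.0%. The hepatocyte peak of Cyp1b1 covered 1178 bases (4.64% were narrower), against 4523 to 5000 bases in the other cell types. The widest Tiparp peak was that of stem cells, with 10645 bases. The Ahr peaks also cover the start of Gm48236 and the Tiparp peaks that of 4931440P22Rik, whose reads cannot be told apart from theirs.

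**Figure D2:**
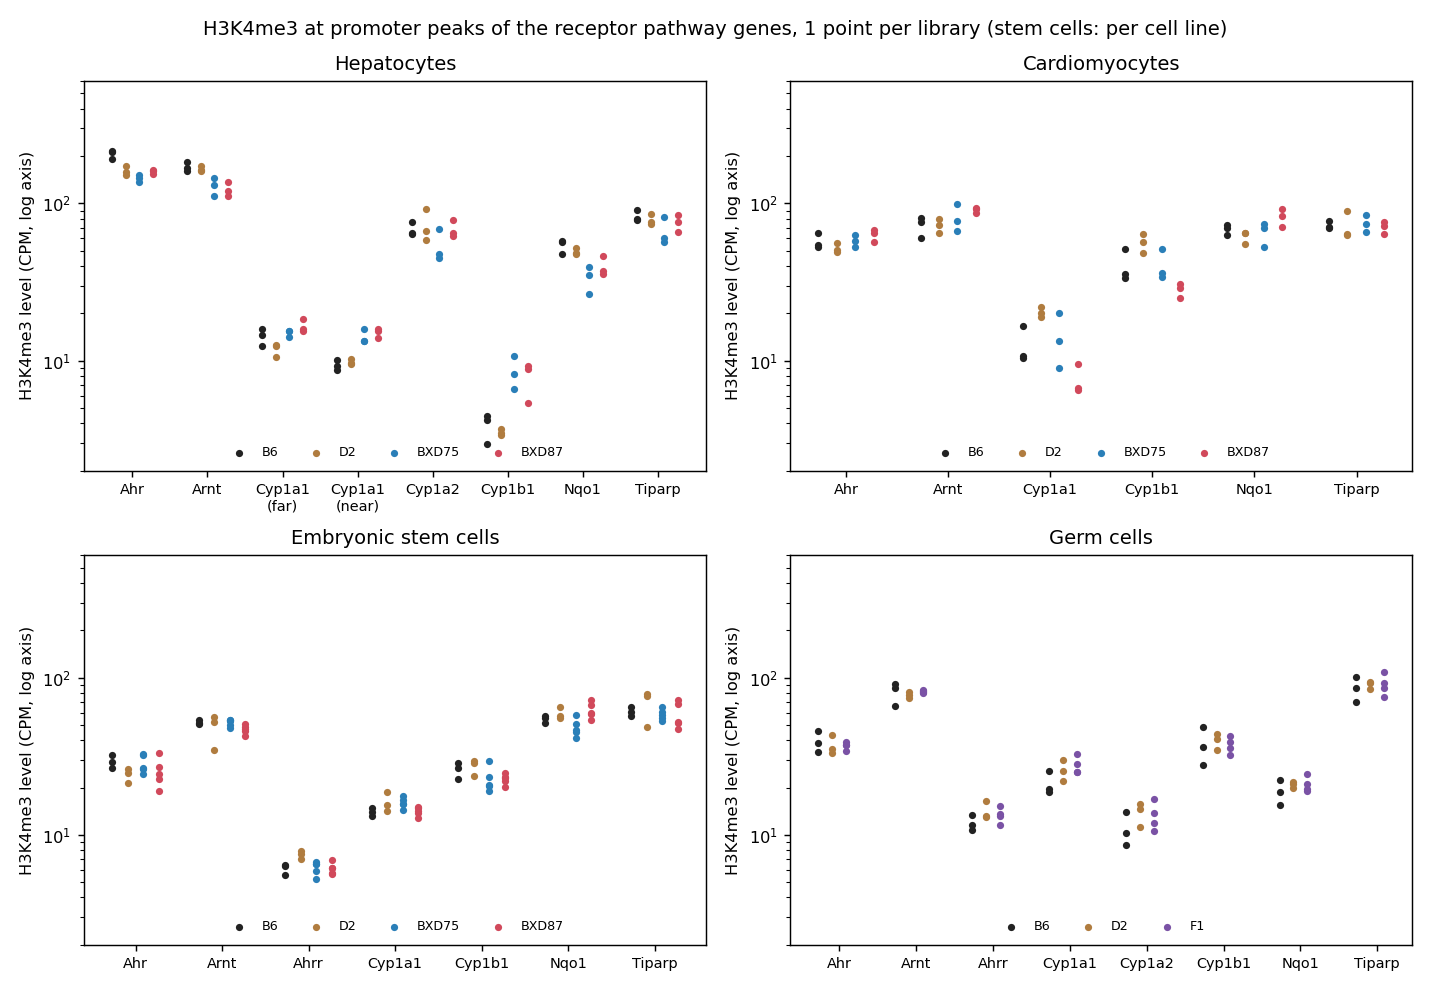
H3K4me3 level in CPM on a log axis for each gene with a promoter peak, 1 panel per cell type and 1 point per library (per line in stem cells), coloured by strain. Hepatocyte points run from 2.94 CPM at Cyp1b1 to 216 CPM at Ahr, and strains overlap at most genes.

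Levels of different genes were compared per kb of peak. In hepatocytes Ahr came first with 17.2 ± 2.6 CPM per kb over 12 libraries, ahead of Cyp1a2 (13.2 ± 2.5), Arnt (12 ± 2.0) and Tiparp (11.7 ± 1.6), and the ranges of all neighbours in the order overlapped. The far Cyp1a1 peak came last over the 12 libraries with 3.84 ± 0.57. In the 6 founder libraries alone Cyp1b1 came last, with 3.13 ± 0.47 CPM per kb against 3.47 ± 0.49 for the far Cyp1a1 peak. In cardiomyocytes Tiparp came first with 18.7 ± 2.1 CPM per kb and did not overlap Arnt, the next, at 11.1 ± 1.7. Germ cells had Arnt (21.7 ± 1.8) and Tiparp (20.7 ± 2.6) together above Ahr (10.1 ± 1.1), with no overlap between Tiparp and Ahr over 10 libraries. Ahrr was last in germ cells (5.42 ± 0.71) and in stem cells (3.69 ± 0.42), where Arnt led with 10.2 ± 1.1.

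The founders were compared to see where the genes differ with the parental genome. The only member called was Ahr, the receptor gene itself, in hepatocytes. At the Ahr promoter the B6 hepatocyte libraries stood at 216, 212 and 190.4 CPM and the D2 libraries at 173, 159 and 153 CPM, so that every B6 library lay above every D2 library. The means were 206 ± 14 and 161 ± 10 CPM (n = 3 each), a 1.28-fold difference (log2 0.35, SE 0.08, adjusted p = 0.00383). It was the only called member of 8 in that comparison. As 15.8% of all tested peaks and 9.22% of promoter peaks were called, the members' share is near the background. How many of all peaks lacked overlap between strains was not counted in any cell type, so a lack of overlap has no background here or below. Of the 4 non-parenchymal markers Stab2 alone was called, but the median log2 of the 4 was -0.58, lower in B6. Kdr, of endothelium, whose peak was also found on the second genome alone, had 12.5 ± 1.1 CPM in B6 and 12.3 ± 4.9 in D2. Lrat and Reln, the others of the 4, were not called. From the heart list Pdgfra, a mesenchymal marker, went the other way, with 27.1 ± 1.4 CPM in B6 and 16.8 ± 0.8 in D2 (log2 0.69, adjusted p = 0.00192). It was 1 of 2 markers of that list with a peak. The other, Ptprc, was not called, and the median log2 of the 2 was 0.34. No hepatocyte marker of 6 was called. The part of these markers in the Ahr difference was not tested. In bulk chromatin fewer cells of a type and less mark per cell cannot be told apart. The median log2 difference of the 8 peaks was 0.11, against 0.01 over all peaks.

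In the other cell types Ahr was nominally higher in B6 without passing the test. Cardiomyocytes of B6 stood at 53.1, 54.3 and 64.4 CPM and those of D2 at 49.3, 50.8 and 55.9 CPM, a log2 difference of 0.14 (SE 0.12, adjusted p = 0.449). Stem cell lines of B6 stood at 29.2, 32.1 and 26.5 CPM and those of D2 at 21.5, 24.7 and 26.3 CPM, with no overlap but a narrow gap (log2 0.27, SE 0.15, adjusted p = 0.195). In germ cells B6 stood at 33.7, 45.8 and 38.4 CPM and D2 at 33.2, 43.5 and 35.2 CPM, which overlapped nearly throughout (log2 0.08, SE 0.15). At 50% reciprocal overlap the hepatocyte Ahr peak could be matched in cardiomyocytes alone. The founder difference in hepatocytes exceeded that in cardiomyocytes by 0.17 on the log2 scale (SE 0.14, adjusted p = 0.453 by the interaction test). Matched by any overlap, it exceeded that in stem cells by 0.11 (SE 0.13, adjusted p = 0.691 by the same test). These cell types were thus not shown to differ.

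**Figure D3:**
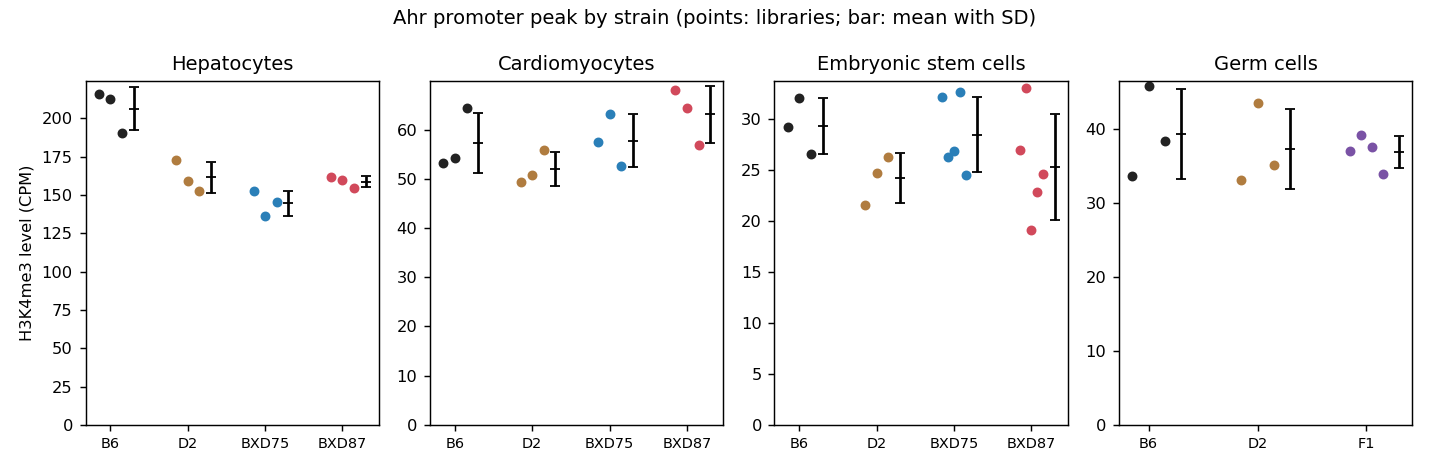
Ahr promoter level in CPM by strain, 1 panel per cell type with its own axis from 0; points are libraries (lines in stem cells) and bars the mean with SD. In hepatocytes the 3 B6 libraries, at 190.4 to 216 CPM, lie above all 9 libraries of the other strains, whereas strains overlap in cardiomyocytes and germ cells.

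Hepatocytes of BXD75 stood at 153, 136 and 145 CPM and those of BXD87 at 162, 159.7 and 155 CPM at Ahr, both below B6 and near D2. Most hepatocyte peaks of 50 CPM or more were lower in the lines than in the founders (median log2 -0.36, 76.1% called lower by edgeR). A level below the founder mean is thus not particular to Ahr. The lines did not differ by the test (log2 -0.13, SE 0.08, adjusted p = 0.60), although their libraries did not overlap. None of the 8 hepatocyte members was called between the lines, where 4.89% of all peaks and 2.33% of promoter peaks were called. The unadjusted p was under 0.05 at 0 of the 8 by edgeR, and DESeq2 called none either.

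Arnt, the partner with which AHR binds DNA, was not called between founders in any cell type. Hepatocytes stood at 182, 159.9 and 168 CPM in B6 and 163, 161 and 174 CPM in D2 (log2 0.03, SE 0.10). In cardiomyocytes the means were 72.4 ± 10.7 and 72.1 ± 7.5 CPM, in germ cells 80.9 ± 13.2 and 77.6 ± 3.2 CPM. Stem cells had 51.99 ± 1.38 and 47.6 ± 11.5 CPM, where the D2 line 173, at 34.6 CPM, stood apart from the other D2 lines at 51.9 and 56.2 CPM. That line was also the lowest of D2 at Tiparp, with 48.7 against 75.9 and 78.7 CPM.

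The repressors were not called between founders in any cell type. TIPARP is an ADP-ribosyltransferase that modifies AHR and limits its activity. Its level was 83.0 ± 6.4 CPM in B6 and 78.6 ± 6.1 CPM in D2 hepatocytes, and 72.5 ± 4.3 and 72.0 ± 14.5 CPM in cardiomyocytes. Ahrr was low throughout. Its B6 stem cell lines stood at 5.56, 6.43 and 6.39 CPM and the D2 lines at 7.92, 7.05 and 7.61 CPM, without overlap and with an adjusted p of 0.144 (log2 -0.29, SE 0.145). In germ cells Ahrr had the same sign, with 11.9 ± 1.4 CPM in B6 and 14.2 ± 1.9 CPM in D2 (adjusted p = 0.407).

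Of the target enzymes, Cyp1a1 and Cyp1b1 in cardiomyocytes had the widest founder gaps, and neither passed the test. CYP1A1 and CYP1B1 oxidise polycyclic aromatic hydrocarbons, CYP1B1 mainly outside the liver. At Cyp1a1 the B6 cardiomyocyte libraries stood at 10.7, 16.6 and 10.4 CPM and the D2 libraries at 19.02, 21.95 and 20.03 CPM, without overlap (log2 -0.70, SE 0.29, adjusted p = 0.143). Only 53 to 114 reads lay behind each of these values. Cyp1b1 stood at 35.5, 51.4 and 33.5 CPM in B6 and at 48.6, 56.8 and 63.5 CPM in D2, where the highest B6 library reached above the lowest D2 library (log2 -0.49, SE 0.19, adjusted p = 0.135). None of 6 cardiomyocyte members was called, against 6.51% of all peaks and 8.51% of promoter peaks. Cyp1a1 and Cyp1b1 had an unadjusted p under 0.05. How many of all peaks had an unadjusted p that low was not counted in any comparison, so such counts have no background. Leaving out B6 replicate 2, the library high at both genes, brought Cyp1b1 to an adjusted p of 0.0318, and leaving out BXD75 replicate 1 brought Cyp1a1 to 0.0486, both by edgeR. The interaction test for Cyp1a1, hepatocytes minus cardiomyocytes, gave 0.59 (SE 0.25, adjusted p = 0.137), and without B6 cardiomyocyte replicate 2 it was called (0.84, adjusted p = 0.0058).

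The same pair of genes had the widest gaps between the BXD lines in cardiomyocytes, both nominally higher in BXD75. Cyp1a1 stood at 20.1, 8.95 and 13.3 CPM in BXD75 and 6.55, 9.57 and 6.73 CPM in BXD87, overlapping in 1 library (log2 0.89, SE 0.28, adjusted p = 0.205). Cyp1b1 stood at 51.4, 36.2 and 33.9 CPM against 29.0, 30.6 and 24.9 CPM, without overlap (log2 0.53, SE 0.19, adjusted p = 0.233). No cardiomyocyte member was called, against 0.529% of all peaks and 0.433% of promoter peaks. An unadjusted p under 0.05 was found at 3 of 6, with Nqo1, a count that these shares of adjusted calls are no background for. Without BXD75 replicate 2, the lowest of its group at Cyp1a1, that gene was called (log2 1.14, adjusted p = 0.047).

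In hepatocytes the founders did not differ at the enzymes by the test. Cyp1a2 stood at 64.3, 76.5 and 64.5 CPM in B6 and 91.5, 67.2 and 58.8 CPM in D2, the D2 range enclosing that of B6 (log2 -0.08, SE 0.17). The far Cyp1a1 peak averaged 14.3 ± 1.7 CPM for B6 against 11.9 ± 1.1 CPM for D2 (log2 0.26, SE 0.13, adjusted p = 0.235) and the near one 9.32 ± 0.68 and 9.81 ± 0.39 CPM. Cyp1b1 had 3.87 ± 0.82 and 3.52 ± 0.15 CPM from 27 to 61 reads per library. In germ cells no member was called between founders, where 17.3% of all peaks and 7.51% of promoter peaks were, and at 0 of 8 was the unadjusted p under 0.05. Cyp1a1 there stood at 21.2 ± 3.6 CPM in B6 and 25.8 ± 3.9 CPM in D2 (log2 -0.28, SE 0.17) and Cyp1a2 at 10.95 ± 2.78 and 13.8 ± 2.3 CPM. In stem cells 0 of 7 were called, against 30.6% of all peaks and 17.3% of promoter peaks, again with 0 of 7 at an unadjusted p under 0.05. Cyp1a1 stood there at 14.0 ± 0.9 CPM in B6 and 16.1 ± 2.3 CPM in D2. The interaction tests called none of 2 members matched with germ cells, none of 3 matched with stem cells and none of 4 matched with cardiomyocytes, against 9.03%, 9.32% and 11.5% of matched peaks. Without D2 stem cell line 173, Tiparp was called against stem cells (0.38, SE 0.11, adjusted p = 0.0465 by edgeR).

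Nqo1, a quinone reductase that is a target of both AHR and NRF2, was lower in BXD75 than in BXD87 stem cells. The 5 BXD75 lines stood at 50.7, 46.7, 45.3, 57.5 and 41.1 CPM and the 5 BXD87 lines at 58.9, 66.6, 71.7, 59.3 and 54.1 CPM. A single BXD75 line, at 57.5 CPM, reached above the lowest BXD87 line. The means were 48.2 ± 6.2 and 62.1 ± 7.0 CPM (n = 5 each), a 1.29-fold difference (log2 -0.36, SE 0.09, adjusted p = 0.00664). It was the only called member of 7. As 21.8% of all peaks and 14.5% of promoter peaks were called there, the members' share is near the background. The founder means lay between these, 54.8 ± 2.6 CPM for B6 and 59.3 ± 5.2 CPM for D2. Nqo1 had the same sign between the lines in hepatocytes (33.5 ± 6.5 and 39.8 ± 5.8 CPM, log2 -0.25, SE 0.14, adjusted p = 0.55) and in cardiomyocytes (65.4 ± 11.3 and 81.9 ± 10.8 CPM, log2 -0.32, SE 0.13, adjusted p = 0.248), neither of which was called.

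**Figure D4:**
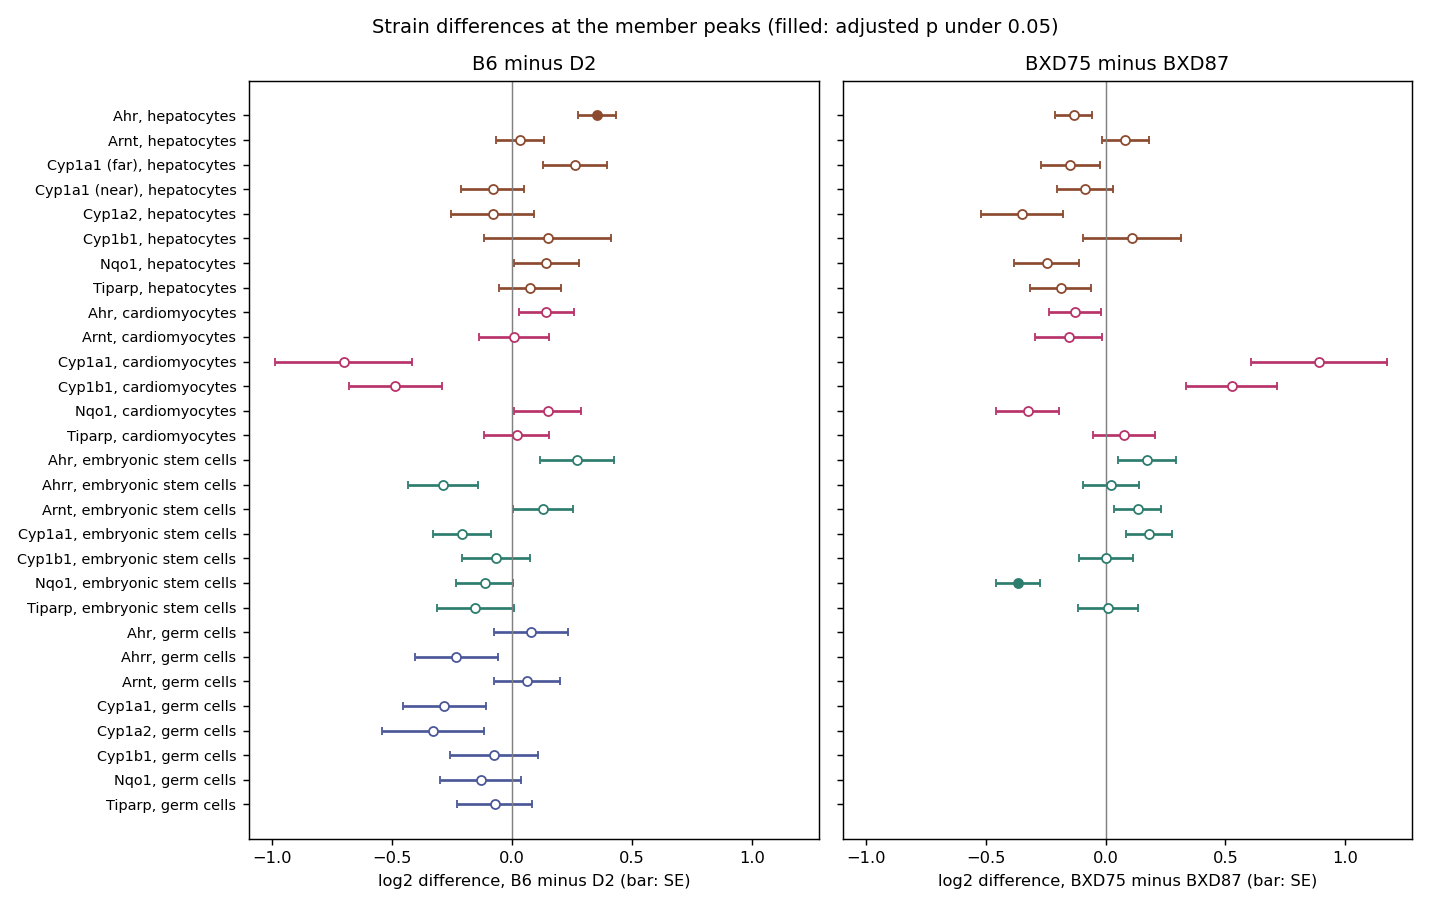
log2 difference with its SE for each member peak by cell type, B6 minus D2 on the left and BXD75 minus BXD87 on the right (no germ cell lines on the right); filled points have an adjusted p under 0.05. The filled points are Ahr in hepatocytes (0.35) and Nqo1 in stem cells (-0.36), and the widest open intervals are those of Cyp1a1 in cardiomyocytes.

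The F1 hybrid carries 1 copy of each founder genome, and its germ cells were compared with both parents. At Ahr the 4 F1 libraries stood at 37.0, 39.2, 37.5 and 33.9 CPM, inside the range of both parents. No member was called against B6, D2 or the mean of the parents, in comparisons that called 4.69%, 5.87% and 1.59% of all peaks and 1.93%, 2.51% and 0.787% of promoter peaks. The unadjusted p was under 0.05 only for Cyp1a1 against B6, where F1 stood at 25.0, 32.5, 28.4 and 25.1 CPM and B6 at 19.4, 25.4 and 18.9 CPM (log2 0.37, SE 0.16, adjusted p = 0.227). The 3 comparisons share the F1 libraries.

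Further genes of the pathway were read from 3 lists, 1 promoter peak per gene. Of 11 genes of the receptor complex and its cofactors, such as the coactivators Ncoa1 and Ep300, 10 had a peak in each cell type. None of the 10 was called between founders in any cell type, between the lines, or between F1 and parents, by edgeR. The median log2 difference between founders was 0.00 in hepatocytes, 0.04 in cardiomyocytes, 0.05 in stem cells and -0.10 in germ cells, against 0.02, -0.04, 0.01 and -0.07 over all promoter peaks in the same order. Of 16 other target and partner enzymes 12 had a peak in hepatocytes, and Gclm, the modifier subunit of glutamate-cysteine ligase in glutathione synthesis, was the only 1 of the 12 called between founders, a share near the 9.22% of promoter peaks called there. Its level was 159.5 ± 10.2 CPM in B6 and 115 ± 5 CPM in D2 (log2 0.47, SE 0.08, adjusted p = 0.000314). Gclm was also the only 1 of 12 called between the lines in hepatocytes, where 2.33% of promoter peaks were called. It stood there at 127 ± 9 CPM in BXD75 and 101 ± 2 in BXD87 (log2 0.33, adjusted p = 0.0163). In stem cells it stood at 52.9 ± 3.7 CPM in B6 against 36.5 ± 5.8 in D2 (log2 0.54, adjusted p = 0.00261) and at 49.5 ± 5.7 in BXD75 against 37.4 ± 4.5 in BXD87 (log2 0.40, adjusted p = 0.00512). Gclm was called in all 4 of these comparisons, higher in B6 and in BXD75. Between the lines in stem cells it was the only 1 of 10 enzymes called, against 14.5% of promoter peaks. In cardiomyocytes it was called neither between founders nor between the lines, and in germ cells not between founders. Of 10 enzymes in stem cells Ephx1, a microsomal epoxide hydrolase, was also called between founders. It was lower in B6 (39.8 ± 2.5 and 48.1 ± 2.9 CPM, adjusted p = 0.0351), so that 2 of 10 were called against 17.3% of promoter peaks. In the same stem cell comparison 3 of 6 germ cell markers were called higher in B6 (median log2 of the 6, 0.63) and 1 of 2 hepatocyte markers lower, and their part in these differences was not tested.

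Of 10 bHLH-PAS relatives of AHR with a peak in cardiomyocytes, 2 were called higher in B6 and 1 lower, against 8.51% of promoter peaks called in either direction. Epas1, the hypoxia-inducible factor HIF-2 alpha, stood at 525.8 ± 15.4 CPM in B6 and 107 ± 14 CPM in D2 (log2 2.30, SE 0.12, adjusted p = 6.22e-08), and Hif3a at 104 ± 8 and 74.9 ± 9.1 CPM (adjusted p = 0.0144). Npas3 was lower in B6, at 14.3 ± 5.3 against 33.2 ± 8.1 CPM (adjusted p = 0.0371). The Npas3 peak was found on the second genome alone and that of Hif3a on the reference genome alone. Hmox1, the heme oxygenase of the enzyme list, was higher in B6 cardiomyocytes, at 100 ± 11.6 against 62.7 ± 2.0 CPM (adjusted p = 0.0159), the only 1 of 10 enzymes called there. Of 12 relatives in germ cells Npas4 was called, lower in B6 (10.5 ± 2.4 and 16.3 ± 0.9 CPM, adjusted p = 0.031), against 7.51% of promoter peaks. Of 5 in hepatocytes and 10 in stem cells none was called between founders by edgeR, against 9.22% and 17.3% of promoter peaks. Whether these shares differ between cell types was not tested. The summed level of the 2 detected cardiomyocyte markers was 293 to 356 CPM in B6 and 236 to 254 CPM in D2, and its part in these differences was not tested.

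In hepatocytes the mean of BXD75 and BXD87 was also set against the mean of B6 and D2 (6 libraries each), a comparison chosen after these levels were seen. By edgeR 6 of 8 member peaks were called, against 71.5% of all peaks and 76.5% of promoter peaks, so the members' share is near the background. How many of all peaks lacked overlap between lines and founders was not counted, so the overlaps given below have no background. Of the markers, 5 of 6 for hepatocytes were called lower in the lines (median log2 -0.29). Of 4 testis somatic markers 3 were called higher and 1 lower (median 0.53), the 1 cardiomyocyte and 1 stem cell marker with a peak were called higher, and of 4 non-parenchymal markers 1 was called in each direction. The part of these shifts in the members' differences was not tested. Cyp1b1 stood at 5.41 to 10.8 CPM in the lines and 2.94 to 4.45 CPM in the founders, a 2.21-fold higher level without overlap (log2 1.14, SE 0.17, adjusted p = 1.76e-05). The near Cyp1a1 peak was higher in the lines as well (14.6 ± 1.2 against 9.56 ± 0.56 CPM, adjusted p = 1.31e-05), and the far one by log2 0.28 (adjusted p = 0.0101, and 0.0745 with DESeq2). Arnt was lower in the lines, at 126 ± 14 against 168 ± 9 CPM, and so was Nqo1, at 36.6 ± 6.5 against 51.8 ± 4.7 CPM (adjusted p = 6.28e-05 and 0.000218, neither overlapping). Ahr was lower by 1.20-fold, and by library size alone, without TMM, its difference was log2 -0.08 with an adjusted p of 0.156. Tiparp and Cyp1a2 were not called by edgeR (log2 -0.19 and -0.21, adjusted p = 0.0714 and 0.128). Both were called lower in the lines by DESeq2 (adjusted p = 0.0112 and 0.0433) and by edgeR with the replicate block (0.0348 and 0.0292). Over all hepatocyte peaks the sign went with the level: the median log2 was 0.40 for 4662 peaks below 5 CPM, 0.42 for 11865 peaks of 5 to 20 CPM and -0.36 for 7327 peaks of 50 CPM or more, of which 76.1% were called lower in the lines. The median of all peaks was 0.15 and moved to 0.34 by library size alone. Strain, batch and processing cannot be told apart here, since each line and founder is 1 group.

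In cardiomyocytes the same comparison called Cyp1b1 and Cyp1a1 of 6 members, both lower in the lines (log2 -0.49 and -0.62, adjusted p = 0.03 and 0.0484), against 17.3% of all peaks and 21.1% of promoter peaks. In stem cells it called 0 of 7, against 10.7% and 6.03%, with 1 of 7 at an unadjusted p under 0.05. The cardiomyocyte calls were kept in 10 and 7 of 18 alternative settings.

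The BXD panel in germ cells showed the levels over 61 strains. Antibody lot split it, with 28 strains of lot 2557645, 32 of lot 2746331 and 1 with both. Between the lots 57.2% of all peaks were called by limma on strain means, and 6 of 8 members were, all but Cyp1a1 and Cyp1a2. Arnt ran from 48.8 to 81.3 CPM, with a median of 62.9, in the first lot and from 43.6 to 69.7 CPM, with a median of 53.3, in the second (log2 0.24, SE 0.04, adjusted p = 4.64e-06). Tiparp was higher in the first lot too, with medians of 80.2 and 69.3 CPM. Cyp1b1 was lower there, with medians of 44.7 and 51.5 CPM (log2 -0.25, SE 0.04), as were Ahrr and Nqo1. Ahr differed least of the 6, with medians of 37.5 and 35.5 CPM (log2 0.11, SE 0.04, adjusted p = 0.0291), and by library size alone it was not called (adjusted p = 0.282) while Cyp1a2 was (0.0129). The spreads between strains and the correlations below have lot means removed, and values in CPM do not.

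Founder libraries of germ cells, made with the first lot, stood above the strains of that lot at Arnt. On the scaling of the panel they ranged from 78.2 to 105 CPM, and 27 of 28 strains lay below that range. Of 19447 promoter peaks 4.75% had as many strains below the founders. At Tiparp 16 and at Ahr 11 of the 28 strains lay below the founder range and none above. The share of promoter peaks with as many strains below was not computed for Tiparp and Ahr. Cyp1a1 and Cyp1b1 had none below, with 4 and 1 above. Germ cells of BXD75 and BXD87 had 71.2 and 69.1 CPM at Arnt and 46.0 and 44.3 CPM at Ahr, with no test since their libraries are single or few.

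Strains differed most, relative to repeat libraries, at Cyp1a1. The SD of its strain means was 0.15 on the log2 scale and that between libraries of 1 strain 0.06 (15 libraries of 7 strains), a variance ratio of 5.58 against a median of 0.831 over promoter peaks. The share of promoter peaks with a ratio as high was not computed. The lowest strain was BXD75 and the highest BXD83, each from a single library. These held 3.45 and 2.13 reads in peaks, in units of 1e+06, where the panel libraries ranged from 1.87 to 18.6. The part of counting noise in the strain spread of Cyp1a1 was not tested. In variance ratio Cyp1b1 (2.02), Cyp1a2 (1.83) and Nqo1 (1.53) followed Cyp1a1. At Ahr the strain SD of 0.17 was as large as that between libraries of 1 strain, also 0.17 (ratio 1.08), with BXD55 lowest and BXD14 highest. Tiparp had the smallest ratio, 0.345, since its repeat libraries differed by an SD of 0.28.

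Across the 61 strains Tiparp was the only 1 of 7 other members whose level went with that of Ahr. Pearson's r was 0.47 and Spearman's rho 0.42 (permutation p = 0.00014 and 0.00067, adjusted over the 7 members 0.00098 and 0.00469). Within the lots r was 0.51 (28 strains) and 0.42 (32 strains), and without the 2 strains farthest from the Ahr median it was 0.50. The other 6 had r from -0.24 (Cyp1a2) to 0.18 (Cyp1b1), with adjusted permutation p of 0.214 or more for r. By library size alone the r of Tiparp was 0.37 (adjusted permutation p = 0.0269) and the adjusted p for its rho was 0.176. The variance ratio of strains to repeat libraries was 0.345 at Tiparp and 1.08 at Ahr, so strain and library spread cannot be told apart in this r. The points share libraries, depth and antibody, and the median r of Ahr with 19405 promoter peaks of other genes was 0.16. An r as high as that of Tiparp was found at 1.76% of those peaks. The promoters most like Ahr over the strains were Eea1 (r = 0.68), Sec24b (0.62) and Tmem50b (0.61). Across the 12 hepatocyte libraries those most like the far Cyp1a1 peak were Pim2 (r = 0.90), Anxa4 (0.88) and Gm15818 (0.86). The median r over 12606 promoter peaks was -0.43, and 0.167% of them reached 0.8. These 12 libraries include the lines and founders, between which 71.5% of peaks were called, and r was not computed within those groups.

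**Figure D5:**
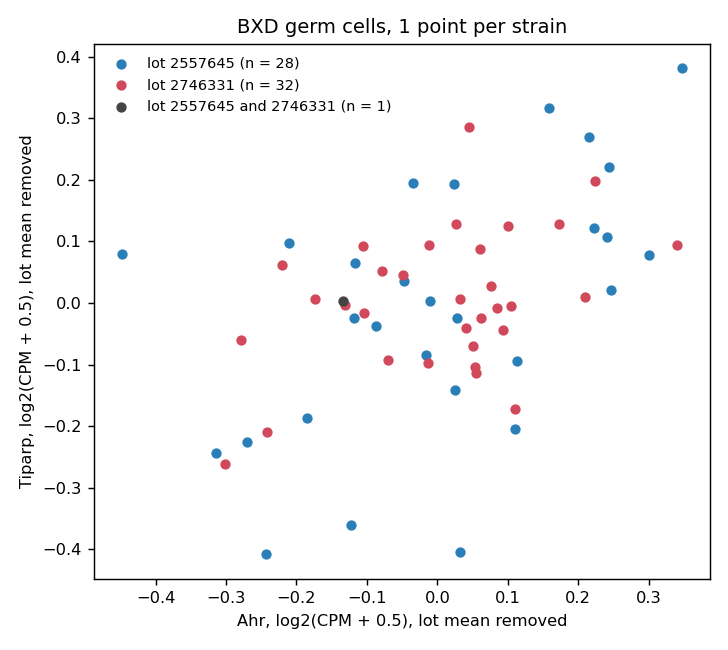
Tiparp against Ahr in BXD germ cells, log2(CPM + 0.5) with lot means removed, 1 point per strain coloured by antibody lot. Points of both lots rise together with wide scatter, with an r of 0.47 over 61 strains.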

How the data were processed

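The members and gene lists were chosen with earlier results of these data known. The deposited tables give raw read counts for each peak, without normalisation by the authors, for 123 H3K4me3 libraries. The deposited peak lists give start and end coordinates (unit: other) on mm10 and on a second genome. BWA 0.5.10, MACS 1.4.2, CASAVA 1.8 and the build mm10 are named, per the submitters' processing notes. Their settings, and how reads were counted, are not given in the sources used here. Chromatin was cut with MNase, per the labels' protocols, and libraries were made with the NEXTflex kit for germ cells and the KAPA kit for the others, so levels were not tested between cell types. The input libraries were not used here.

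Counts were fitted with edgeR 4.0.16 in R 4.3.3: filterByExpr, TMM, robust glmQLFit, with every strain of a tissue fitted together (the 10 germ cell libraries of founders and F1), stem cell libraries of 1 line summed. CPM divide by all reads in peaks times the TMM factor. SE is the log2 difference over the root of F. Lots were tested with limma 3.58.1 on log2(CPM + 0.5), and correlations with 100000 permutations, two-sided. Interaction tests used peaks matched at 50% reciprocal overlap (bedtools 2.31.1). Scripts were tested on simulated data. The text names all member peaks, called genes of 3 lists (up to 3 per direction) and the 3 promoters most like Ahr and Cyp1a1. Alternatives were DESeq2 1.42.0, its size factors, library size alone, 2 other filters, fewer groups, a replicate block, single libraries left out and other windows around starts. The comparison of lines with founders was added after seeing the data. The B6 germ cell columns could not be matched one by one to the labelled replicates and were taken as unnumbered replicates of the group. Same-numbered libraries deviated together (r over 0.1) in 5 of 18 pairs in hepatocytes, 8 of 18 in cardiomyocytes and 0 of 3 in germ cells. Their r ran from -0.283 to 0.62 in hepatocytes and from -0.737 to 0.656 in cardiomyocytes. Between BXD75 and BXD87 hepatocytes r was 0.59, -0.283 and 0.62 for replicates 1, 2 and 3. The main fits did not take the numbers to pair samples, and shared processing of some pairs was not tested.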

Additional observations from a re-analysis of the deposited data

How the results depend on the processing

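The Ahr difference between founder hepatocytes kept its call in 19 of 19 alternatives (log2 0.32 to 0.41, adjusted p 0.00127 to 0.0246, edgeR or DESeq2), and the Nqo1 difference between BXD75 and BXD87 stem cells in 23 of 23 (log2 -0.43 to -0.31, adjusted p 0.0018 to 0.0264). Leaving out 1 library gave 0 to 1 called members in cardiomyocytes for B6 minus D2 and for BXD75 minus BXD87, and 0 to 1 in the interaction tests against stem cells and cardiomyocytes. With lot means left in, 3 members passed for correlation with Ahr, adding Arnt (r = 0.31) and Cyp1a2 (r = -0.29), both with an adjusted permutation p of 0.0479. In the added comparison of lines with founders, cardiomyocytes had 1 called member under the stricter filter, 0 with the replicate block and 0 to 4 with 1 library left out (4 without BXD75 replicate 1), and stem cells 0 to 1 (Cyp1b1, without BXD75 line A). The replicate block changed no member's call in the planned comparisons. DESeq2 called as many members as edgeR in every planned comparison, 0 where edgeR called 0.

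Counts over all peaks moved most in cardiomyocytes. For B6 minus D2 the 1551 called peaks became 2536 with DESeq2, 3347 with the founders alone, 831 with the replicate block, 502 without D2 replicate 2 and 3841 without BXD75 replicate 1. For BXD75 minus BXD87 the 126 became 461 with DESeq2, 27 with the lines alone, 72 with the block, 47 without BXD87 replicate 3 and 504 without BXD75 replicate 2, and DESeq2 moved the share called higher from 60.3% to 45.6%. For lines minus founders the 4125 became 1941 with the block, 1030 without D2 replicate 2 and 9703 without BXD75 replicate 1, and library size alone moved the share higher from 47.5% to 30.3% there and from 59.0% to 73.9% in hepatocytes. With each stem cell library as a replicate, 20566 became 31493 and 7175 became 13909 for the founders and for lines minus founders. The stricter filter lowered the germ cell counts from 11631 to 5028 (B6 minus D2), 3144 to 1607 (F1 minus B6), 3938 to 1886 (F1 minus D2) and 1070 to 601 (F1 minus the mean of parents). Leaving out 1 B6 germ cell library gave 7639 to 16222 for B6 minus D2 and 1574 to 6990 for F1 minus B6. The cause of these shifts was not tested.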
